A study of Mus musculus with 4 samples.

Results

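The 8 genes described here encode T-box transcription factors, most of which are known to act in or next to the developing mouse heart: *Tbx1*, *Tbx2*, *Tbx3*, *Tbx4*, *Tbx5*, *Tbx15*, *Tbx18* and *Tbx20*. They were picked by name from 21938 protein-coding genes, and 55413 genes of all kinds, in the GENCODE M21 annotation of the mouse genome (mm10), and the rule that picked them uses no peak or score. For each gene, the peaks that lay in the gene body or within 50 kb of any of its transcription start sites (TSSs) were counted and placed, and this stretch is called the window of the gene. The peaks came from ATAC-seq, a method in which the Tn5 transposase cuts and tags open chromatin, on hearts at embryonic day 9.5 (E9.5). One group was wild type (WT). The other, *Smyd1-KO*, was homozygous for a null allele of *Smyd1*, which encodes a histone methyltransferase of striated muscle. The null is conventional, so it was present in every cell of the embryo, and no age other than E9.5 is compared here. Each genotype had 2 libraries, 4 in all, each from 40000 viable cells of 4 pooled whole hearts, and embryos of both sexes were used.

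T-box proteins share a DNA-binding domain, the T-box, which reads short elements with the core GGTGTG, and they act as activators or repressors depending on the member. In the heart, TBX5 and TBX20 promote the chamber myocardium together with NKX2-5 and GATA factors. TBX2 and TBX3 occupy related elements in the atrioventricular canal and the future conduction system and repress chamber genes there. TBX1 acts in the second heart field and pharyngeal mesoderm, TBX18 in the epicardium and the sinus horns, TBX4 in hindlimb and lung, and TBX15 in skeletal and limb mesoderm.

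Peaks whose signal differed 2-fold or more between the genotypes were used, 25745 of them higher in *Smyd1-KO* hearts, called gained peaks, and 106 higher in WT hearts, called WT-enriched peaks. All are 149 bp wide. Each peak carries 1 score, the tag value of the peak caller in the genotype where the peak was higher, and the gained list had a median score of 180.5. There is no value per library, so no score has a replicate error, no comparison of the genotypes could be tested, and a fold change per peak is not given here. Counts therefore stand beside the same count over all protein-coding genes, which is a description. A gene without a listed peak at a site is one where no 2-fold difference was listed, which does not tell closed chromatin from chromatin open alike in both genotypes. In whole hearts, a change in the share of a cell type and a change in accessibility per cell cannot be told apart. At *Smyd1* itself, the window held 3 gained and 0 WT-enriched peaks, the nearest 9201 bp from a TSS, which is no check of the deletion.

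All 8 T-box genes had at least 1 gained peak in their window, where 79.2% of all protein-coding genes had one. Their windows held 21 different gained peaks, with scores from 44.0 to 1055.0 and a median of 185.5. No WT-enriched peak lay in any of the 8 windows, where 0.415% of protein-coding genes had one. The nearest WT-enriched peak was 3.79 Mb from *Tbx18* and farther from the others, up to 70.2 Mb from *Tbx2* and *Tbx4*. At the promoters the genes divided. *Tbx2*, *Tbx3* and *Tbx18* had a gained peak across a TSS, as did 27.8% of protein-coding genes. The centres of these 3 peaks lay 64, 32 and 62 bp upstream of the 5′ ends, so the TSS fell under a flank of the peak, and by peak centres the count was 0 of 8 genes against 0.392%. *Tbx1* was added when peaks within 3 kb of a TSS were counted, which gave 4 of 8 genes against 51.2%, and *Tbx5* within 10 kb, which gave 5 of 8 against 59.6%. *Tbx4*, *Tbx15* and *Tbx20* had none within 10 kb. All 8 had a gained peak in the window beyond 3 kb of their TSSs, against 71.1%. No test was made of these counts over 8 genes.

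**Figure D1:**
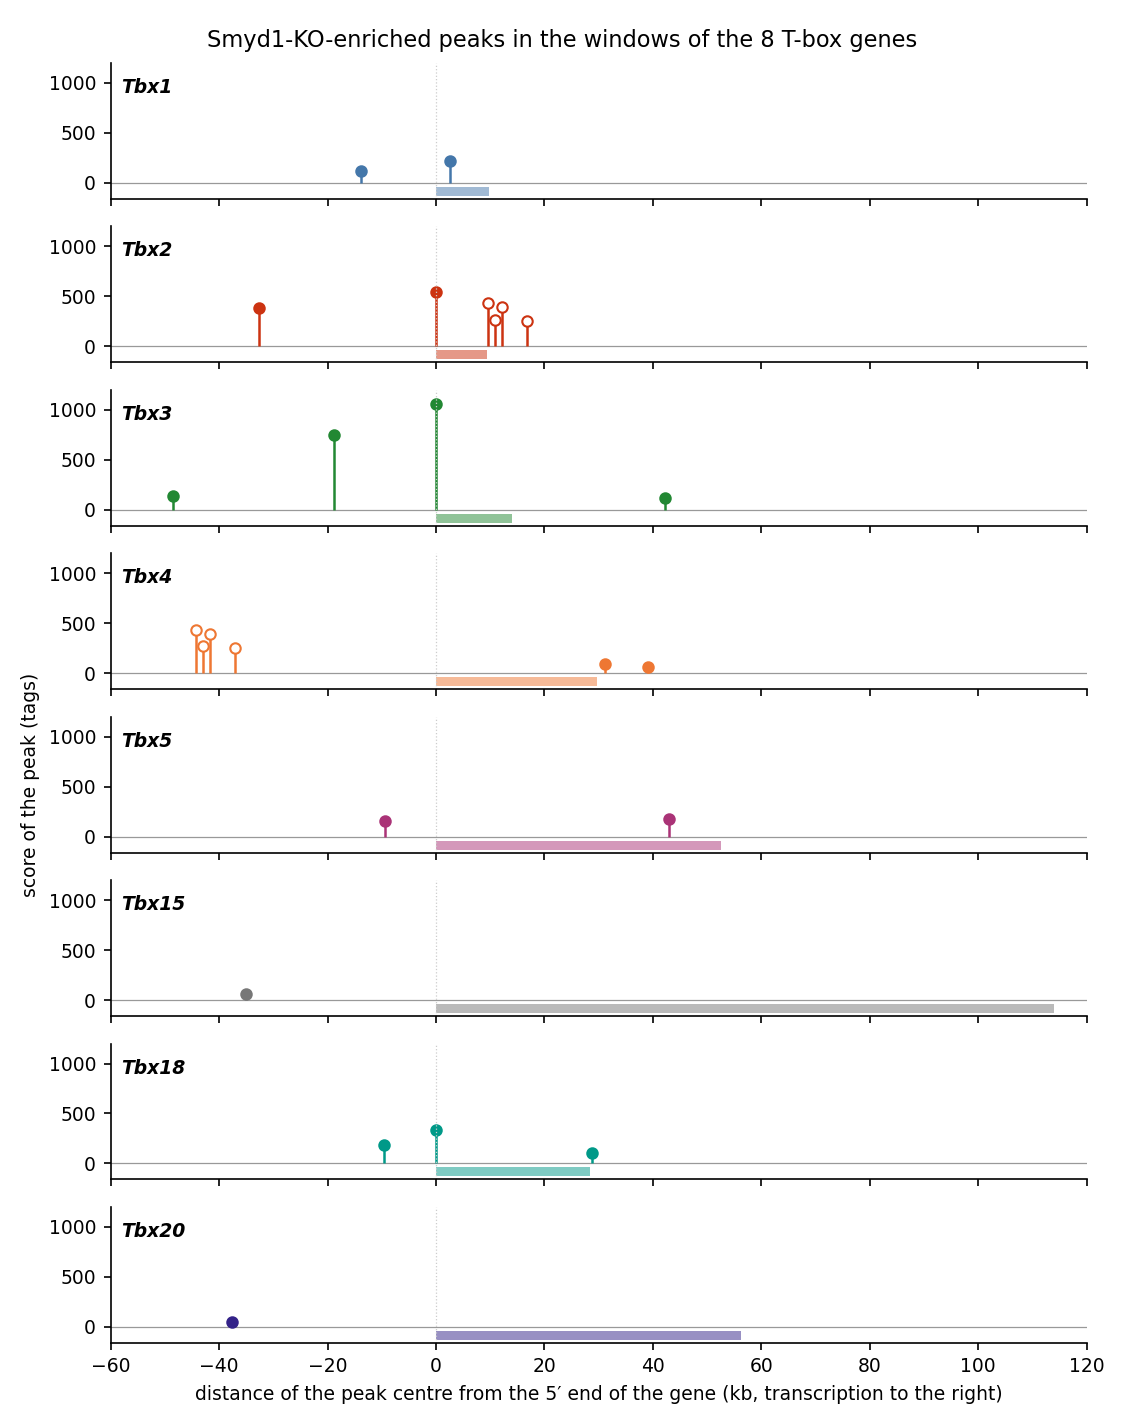
Gained peaks in the window of each of the 8 T-box genes. The x axis is the distance of the peak centre from the 5′ end of the gene in kb, with transcription to the right, the y axis is the score of the peak in tags, and the shaded bar is the gene body. Open circles are the 4 peaks that the windows of Tbx2 and Tbx4 share. Tbx2, Tbx3 and Tbx18 have a peak whose centre lies less than 0.1 kb upstream of the 5′ end, and Tbx15 and Tbx20 have a single low peak upstream.

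*Tbx3*, a repressor of the chamber programme that is needed for the conduction system, had the highest scores of the 8. Its gene lies on the plus strand of chromosome 5 (chr5:119670669-119684724). The peak across its first TSS, at chr5:119670563-119670711, scored 1055.0, above 97.6% of all gained peaks and above 96.5% of the gained peaks that covered a TSS, whose median was 430.0. The next peak, at chr5:119651690-119651838, lay 18831 bp upstream in introns of the non-coding genes *Gm16064* and *Tbx3os1*, the second of which runs antisense to *Tbx3*. It scored 747.5. That was above 99.2% of the 3909 gained peaks at 3 to 10 kb from the nearest TSS of any gene, a class with a median of 102.5. The remaining 2 peaks of *Tbx3* were low, at 133.0 for a peak 48370 bp upstream and 115.5 for one 32655 bp downstream of the nearest TSS. The 2 high peaks are printed because no other peak at the 8 genes reached their scores, on the plus strand and from RefSeq GRCm38.p6, with the bases of the 5′ UTR left out. Capitals mark the T-box core on the opposite strand.
Tbx3 TSS peak, chr5:119670563-119670668: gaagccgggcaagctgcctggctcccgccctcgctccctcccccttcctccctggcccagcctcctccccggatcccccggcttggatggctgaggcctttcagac
Tbx3 upstream peak, chr5:119651690-119651838: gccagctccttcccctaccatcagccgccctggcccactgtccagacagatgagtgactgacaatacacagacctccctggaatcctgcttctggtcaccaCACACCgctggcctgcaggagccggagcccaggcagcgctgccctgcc
Both peaks are rich in G and C, at 71.1% and 64.4%. Their observed to expected CpG ratios were 0.492 and 0.279, above and below the median of 0.416 over all gained peaks.

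*Tbx2*, the other repressor of chamber genes in the atrioventricular canal, lies on the plus strand of chromosome 11 (chr11:85832551-85841948) with 1 annotated TSS. A gained peak at chr11:85832413-85832561 covered it and scored 539.0, above 83.7% of the list and 66.3% of the TSS peaks. The window held 5 more peaks. One scored 383.0 and lay 32534 bp upstream, in introns of *Bcas3* and of *2610027K06Rik* and 1804 bp from a TSS of *Bcas3*. The other 4 followed each other downstream of the gene, with scores of 431.0, 268.0, 389.5 and 249.0. The first of them began 82 bp beyond the annotated 3′ end of *Tbx2*, and the 4 spanned 7.34 kb. All 6 peaks of *Tbx2* scored above the median of the list, which held for no other T-box gene with more than 1 peak. The TSS peak and the 3 downstream peaks outside any gene are printed, to show the promoter beside the sequence past the end of the gene. Capitals mark a CTCF consensus string, searched after the sequences had been seen.
Tbx2 TSS peak, chr11:85832413-85832550: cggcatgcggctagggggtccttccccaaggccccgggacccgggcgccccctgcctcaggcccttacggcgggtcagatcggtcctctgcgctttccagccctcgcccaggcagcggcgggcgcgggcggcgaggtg
Tbx2 downstream peak 1, chr11:85842030-85842178: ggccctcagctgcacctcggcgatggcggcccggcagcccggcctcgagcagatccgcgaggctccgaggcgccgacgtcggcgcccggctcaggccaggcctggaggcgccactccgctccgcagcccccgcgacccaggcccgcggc
Tbx2 downstream peak 2, chr11:85843372-85843520: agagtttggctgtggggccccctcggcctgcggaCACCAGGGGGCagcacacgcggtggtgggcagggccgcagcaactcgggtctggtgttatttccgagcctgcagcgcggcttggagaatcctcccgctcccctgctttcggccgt
Tbx2 downstream peak 3, chr11:85844697-85844845: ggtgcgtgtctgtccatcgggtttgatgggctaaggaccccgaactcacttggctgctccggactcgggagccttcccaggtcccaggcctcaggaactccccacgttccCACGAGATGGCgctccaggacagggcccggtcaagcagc
The first downstream peak had the highest GC content of all 21, 80.5%, and a CpG ratio of 0.923, which is a composition usual for CpG islands although it covers no TSS. The other downstream peaks had CpG ratios of 0.690, 0.572 and 0.575, also above that median.

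*Tbx4*, a limb and lung gene, follows *Tbx2* on the same strand (chr11:85886422-85916097), and the 44.5 kb between the 2 genes held these 4 peaks and no other. They lay inside both windows, so *Tbx4* also counted 6 peaks, 4 of them shared with *Tbx2*. They stood at 8.99 gained peaks per 100 kb of the interval, where the assembled chromosomes as a whole, gene-poor stretches included, had 0.945. Among the windows of protein-coding genes, those of *Tbx2* and *Tbx4* were at the 94.6th and 92.0th percentiles of peaks per length. The last of the 4 lay in an intron of *Gm11444*, a coding gene on the minus strand, 963 bp from its TSS. The window of *Tbx4* had 2 peaks to itself, both past its 3′ end and both low. One scored 92.5 and began 1366 bp beyond that end, and the other scored 63.0 and began 9276 bp beyond it. The nearer of these was 20698 bp from the last TSS of *Tbx4*, and 67.7% of protein-coding genes had a gained peak nearer to a TSS. This peak is printed because it alone held 2 kinds of cardiac motif string, a GATA string on the opposite strand and an NKX2-5 string, both in capitals.
Tbx4 3′ peak, chr11:85917463-85917611: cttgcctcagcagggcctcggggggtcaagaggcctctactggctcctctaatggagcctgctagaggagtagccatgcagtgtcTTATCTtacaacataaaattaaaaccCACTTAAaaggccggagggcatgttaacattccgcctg
Both genes of the pair thus had gained peaks past their 3′ ends, and a gained peak across a TSS was listed for *Tbx2* alone.

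*Tbx5* and *Tbx20*, whose proteins promote the chamber myocardium, had 2 gained peaks and 1, none of them across a TSS. *Tbx5* lies downstream of *Tbx3* on the same strand (chr5:119832668-119885219), and the 148 kb between the 2 genes held 2 gained peaks, 1.35 per 100 kb. One of these was the low 32655 bp peak of *Tbx3* above. The other belonged to the window of *Tbx5*, lay 9363 bp upstream of its first TSS outside any gene and scored 157.0. A second peak of *Tbx5* lay in an intron, 39431 bp from the nearest TSS of the gene, and scored 171.5. Both scores were below the median of the whole list, and both were above the median of their own distance class, at the 71.5th and 84.1st percentiles. They are printed because *Tbx5* is the best known cardiac member, and neither held any of the motif strings searched.
Tbx5 upstream peak, chr5:119823157-119823305: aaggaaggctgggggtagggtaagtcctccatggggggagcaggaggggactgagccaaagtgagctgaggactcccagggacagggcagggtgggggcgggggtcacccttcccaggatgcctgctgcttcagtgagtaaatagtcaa
Tbx5 intron peak, chr5:119875586-119875734: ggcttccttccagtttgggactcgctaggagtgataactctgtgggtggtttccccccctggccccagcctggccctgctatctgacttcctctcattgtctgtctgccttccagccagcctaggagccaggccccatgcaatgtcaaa
Their CpG ratios were 0.0801 and 0.0812, among the lowest of the 21 peaks, at GC contents of 61.7% and 58.4%.

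*Tbx20*, on the minus strand of chromosome 9 (chr9:24718138-24774303), had a single gained peak, 37470 bp upstream of its first TSS and outside any gene. Its score of 44.0 was the lowest of the 21 and was above only 5.26% of the list. The first TSS of *Tbx20* is rich in CpG, with a ratio of 0.630 and a GC content of 60.7% over 1 kb, and no gained peak was listed there. Of all protein-coding genes with a CpG-rich 5′ end, as defined below, 44.4% had a gained peak across a TSS. For 75% of protein-coding genes a gained peak lay nearer to a TSS. *Tbx15*, on chromosome 3 (chr3:99240381-99354259), also had 1 gained peak. It scored 63.0, lay 34903 bp upstream of the first TSS and touched an exon of the neighbouring gene *Wars2*. For 74.0% of protein-coding genes a peak lay nearer. The gene body of *Tbx15* is the longest of the 8, at 113879 bp, and held 0 gained peaks.

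*Tbx18*, which marks the epicardium and the sinus horns, lies on the minus strand of chromosome 9 (chr9:87702800-87731260) and had 3 gained peaks. The peak across its TSS, at chr9:87731248-87731396, scored 338.5, above 68.7% of the whole list but only 33.9% of the TSS peaks. A peak of 185.5 lay 9439 bp upstream and 679 bp from the TSS of the gene *Gm37374*. A peak of 104.0 began 282 bp beyond the 3′ end. The TSS peak is printed beside those of *Tbx2* and *Tbx3*, on the plus strand and so as the reverse of the direction of transcription, without 13 UTR bases.
Tbx18 TSS peak, chr9:87731261-87731396: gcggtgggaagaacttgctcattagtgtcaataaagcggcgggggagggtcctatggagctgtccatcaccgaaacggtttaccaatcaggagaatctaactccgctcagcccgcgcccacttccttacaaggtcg
Of the 3 TSS peaks it had the lowest GC content, 55.0% against 77.9% for *Tbx2* and 71.1% for *Tbx3*, and the highest CpG ratio, 0.80 against 0.709 and 0.492.

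*Tbx1*, a gene of the second heart field and pharyngeal mesoderm, lies on the minus strand of chromosome 16 (chr16:18580979-18590671) and had 2 gained peaks. The first, at chr16:18588067-18588215, scored 217.0 and lay inside the gene, 593 bp downstream of 1 of its 4 annotated TSSs, where it overlapped untranslated sequence. It covered none of the 4 TSSs, which were between 593 and 4739 bp away. The second scored 122.5 and lay 13707 bp upstream in an intron of the non-coding gene *4930588K23Rik*. There were 4 other coding genes with a TSS in the window of *Tbx1*, more than for any of the other 7 T-box genes.

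The numbers of gained peaks at the T-box genes lay inside the spread over other genes, and no test was made. The windows held 2 for *Tbx1*, 6 for *Tbx2*, 4 for *Tbx3*, 6 for *Tbx4*, 2 for *Tbx5*, 1 for *Tbx15*, 3 for *Tbx18* and 1 for *Tbx20*, with a median of 2.5. Over all protein-coding genes the median was 2 and the quartiles were 1 and 4. At least 6 peaks, the number at *Tbx2* and *Tbx4*, were found in 11.8% of protein-coding genes, and at least 4, the number at *Tbx3*, in 30.1%. The windows were of like size, with a median of 107 kb for the 8 genes and 104 kb for all.

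**Figure D2:**
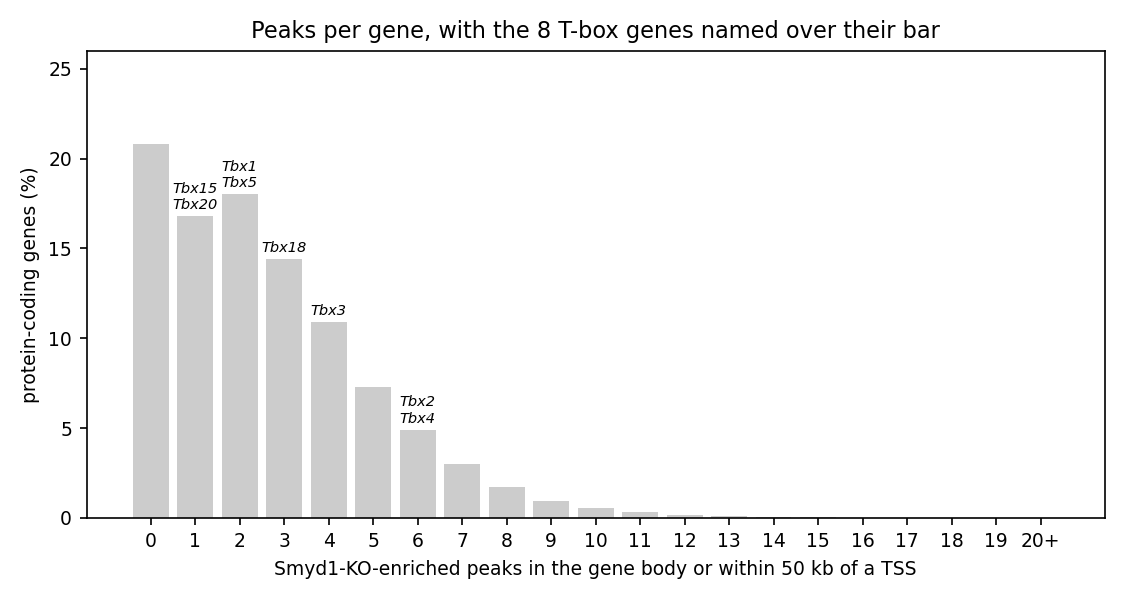
Number of gained peaks in the window of each protein-coding gene. The x axis is the number of peaks, with 20 or more in the last bar, the y axis is the percent of the 21938 genes, and the 8 T-box genes are named above the bar of their own count. The 8 genes span the counts from 1 to 6, and none is among the 20.8% of genes with 0 peaks.

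The 5′ ends of genes were also grouped by base composition, since CpG-rich promoters make up much of the open chromatin of most tissues. Only the 5′ end of each gene record was classed, not the other TSSs of the gene. It was called CpG-rich where the 1 kb around it had a CpG ratio of at least 0.6 and at least 50% GC. This held for 44.4% of protein-coding genes and for 5 of the 8, *Tbx1*, *Tbx2*, *Tbx3*, *Tbx18* and *Tbx20*. The 4 T-box genes with a peak within 3 kb of a TSS were all among these 5. Of all protein-coding genes with a CpG-rich 5′ end, 79.0% had a gained peak within 3 kb of any of their TSSs and 44.4% had one across a TSS. The 3 genes whose 5′ ends were not CpG-rich, *Tbx4*, *Tbx5* and *Tbx15*, had ratios of 0.511, 0.425 and 0.363 there. They had no peak within 3 kb of any TSS, where 51.2% of all protein-coding genes had one. The share over genes without a CpG-rich 5′ end alone was not counted. The part of base composition in the split between the T-box genes was not tested.

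Scores in the whole list fell with distance from a TSS of any gene, from a median of 430.0 at a TSS to 81.0 beyond 10 kb, so the T-box peaks were read against peaks at a like distance. Of the 21 peaks, 11 scored above the median of the whole list and 14 above the median of their distance class. At a TSS, 2 of 3 were above the class median. At 1 bp to 3 kb it was 1 of 5, and beyond 10 kb it was 5 of 7. All 6 peaks at 3 to 10 kb were above their class median of 102.5, with a median of their own of 328.8. These 6 came from 3 genes only, with 3 of them from the group downstream of *Tbx2*, 2 from upstream of *Tbx3* and 1 from *Tbx5*, so they are not 6 separate loci.

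**Figure D3:**
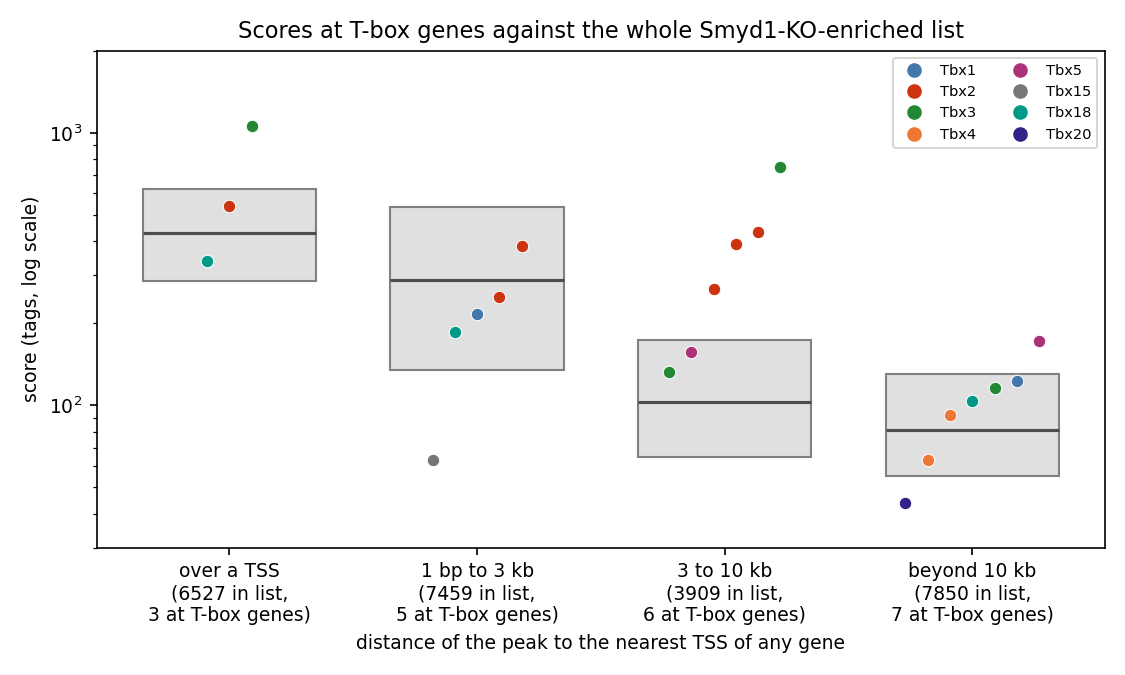
Scores of the 21 gained peaks at T-box genes, by distance to the nearest TSS of any gene. The y axis is the score in tags on a log scale, each point is 1 peak in the colour of its gene (peaks shared with Tbx4 are shown as Tbx2), and the grey boxes give the quartiles and the line the median of all gained peaks in that class. The points at 3 to 10 kb all lie above the line, with Tbx3 at 747.5 highest.

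A T-box TSS was the nearest of all annotated TSSs for 5 of the 21 peaks, and the nearest TSS of a coding gene for 16. From the TSS of the T-box gene itself, 14 peaks were more than 10 kb away, and 5 peaks touched a T-box gene body. None of the 32-base words in the 21 peaks recurs in the genome.

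Motif strings were counted in the 21 peaks on both strands. The full T-box element AGGTGTGA was in 0 of 21, and in 0.435% of all gained peaks and 0.627% of 32851 promoters, taken as the 149 bases before each gene start in RefSeq. The core GGTGTG, which is part of that element, was in 2 of 21, the 747.5 peak upstream of *Tbx3* and the 122.5 peak upstream of *Tbx1*, against 9.33% of all gained peaks and 10.2% of promoters. The GATA string AGATAA was in 2, the 92.5 peak of *Tbx4* and the 115.5 peak of *Tbx3*, against 8.87% and 5.61%. The NKX2-5 string CACTTNA was in 1, the same *Tbx4* peak, against 6.76% and 5.83%. The CTCF string was in 2, both downstream of *Tbx2*, against 8.46% and 1.58%. No test was made of these small counts, and a string is not a bound site.

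The genes that work with the cardiac T-box factors were counted from 3 lists, chosen by known role. Of 11 partners, which bind T-box proteins or act beside them on the same genes, all 11 had a gained peak in their window, 8 within 3 kb of a TSS and 7 across a TSS, beside 79.2%, 51.2% and 27.8% of all protein-coding genes. The highest of the TSS peaks were 886.5 at *Gata5* and 746.5 at *Gata6*, genes of cardiac GATA factors. *Mef2c*, *Sall4*, *Smarcd3*, *Chd4* and *Gata4* also had one, with scores between 117.0 and 356.5, while *Nkx2-5*, the homeobox partner of TBX5, had 7 peaks in its window and none within 3 kb of a TSS. *Chd4* encodes a nucleosome remodeller and *Smarcd3* a subunit of the BAF remodelling complex. Of 10 targets, genes known to be controlled by cardiac T-box factors, 9 had a peak in the window, 6 within 3 kb and 1 across a TSS, the cell-cycle gene *Mycn* at 305.0. The highest score among the targets was 1150.0 in the window of *Fgf8*, a ligand downstream of TBX1, which had 0 peaks within 3 kb of a TSS. *Nppa*, a chamber gene for natriuretic peptide, had 6 peaks with 1 within 3 kb at 347.5, *Hcn4*, the pacemaker channel, had 1 within 3 kb at 866.0, and *Osr1*, which TBX5 controls in the second heart field, had 0 peaks. Of 9 other T-box family genes, 7 had a peak in the window, 3 within 3 kb and 1 across a TSS, *Mga* at 500.5. *Tbx6* had the highest score in its window, 1124.0, but at most 295.5 within 3 kb of a TSS. *Tbx22* and *Tbr1* had 0 peaks. None of these genes had a WT-enriched peak in its window.

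**Figure D4:**
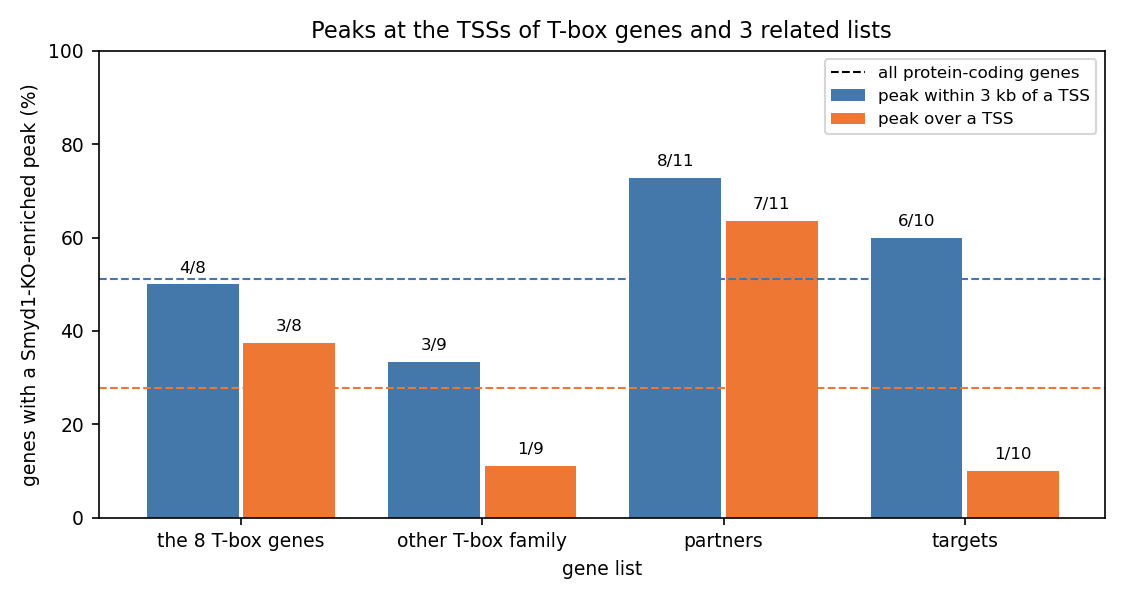
Percent of genes with a gained peak in 4 lists. The x axis gives the list, the y axis the percent of its genes, blue bars a peak within 3 kb of a TSS, orange bars a peak across a TSS, the labels the number of genes, and the dashed lines the percent over all protein-coding genes in the same colours. The partners have 7 of 11 genes with a peak across a TSS, and the T-box genes 3 of 8.

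Markers of the cell types in a heart at this stage were counted in the same way. With the 3 kb limit, gained peaks were found at 5 of 6 cardiomyocyte genes, 3 of 6 of endocardium and endothelium, 2 of 4 of epicardium, 3 of 4 of pharyngeal mesoderm and 1 of 4 of blood, beside 51.2% of all protein-coding genes. The pharyngeal list includes *Tbx1*, whose 217.0 peak is 1 of the 3. With lists this short, nothing is read from these counts about the markers, and the part of cell composition in the T-box peaks was not tested.

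Between 50 and 100 kb of a TSS lay 8 gained peaks that were in none of the 8 windows. The window of *Tbx4* stopped short of the TSS peak of *Tbx2*, which is 53861 bp away, and the farthest peak inside any window was the 133.0 peak at 48370 bp from *Tbx3*. For *Tbx1* these were a peak of 754.0 at 84503 bp, nearest to a TSS of *Gnb1l*, and one of 643.0 at 96354 bp, both higher than its peaks in the window. For *Tbx3* they were a peak of 70.0 at 81722 bp and one of 448.0 at 95313 bp. For *Tbx4* they were a peak of 84.0 at 75712 bp and one of 59.0 at 93289 bp. For *Tbx15* they were a peak of 64.0 at 65279 bp and one of 501.0 at 98999 bp, nearest to a TSS of *Wars2* and higher than its single peak of 63.0 in the window. No further gained peak lay between 50 and 100 kb of *Tbx5*, *Tbx18* or *Tbx20*.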

How the data were processed

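ATAC-seq libraries, 2 per genotype, were made from pooled mouse hearts at E9.5. The authors aligned reads to mm10 with BWA-MEM (version not given in the sources used here), called peaks with HOMER 4.10.3 and annotated them with ChIPseeker 1.20.0. The deposited value of each peak is a signal, the tag value of the peak caller. There is 1 per peak, for the genotype where the peak was higher. How the 2 libraries were combined, whether tags were scaled to depth, and how duplicates, the Tn5 offset and artifact regions were treated is not stated, and each could change which peaks are listed. Library depth cannot be read from the lists.

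Genes came from GENCODE M21 and sequences from RefSeq GRCm38.p6, whose chromosomes are those of mm10. Coordinates count from 1. Distances run from the nearer edge of a peak to a TSS of any transcript, with 0 where it is covered. Percentiles are shares of peaks with a lower score. Counting was done in Python 3.11.15 with numpy 2.4.6 and tested on simulated peaks. Named were all 8 genes, all their peaks and, from the 3 gene lists, genes with a peak across a TSS, with the highest score or with no peak. Cell type markers were used as counts. *Nppa*, *Hcn4* and *Nkx2-5* were added after their values were seen. Members and lists were chosen with earlier results of these data known. Other windows, TSS sets, score limits, merging, placement by centre and uniqueness were tried as alternatives.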

Additional observations from a re-analysis of the deposited data

How the results depend on the processing

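The number of T-box genes with a gained peak in the window fell from 8 to 5 with a window of 10 kb plus gene body, with the gene body alone, with only peaks whose nearest TSS was that of the gene, and with only peaks at or above the median score of the list. Under the same settings 62.6%, 47.3%, 52.0% and 66.7% of all protein-coding genes had such a peak, against 79.2% in the main count. The number of peaks fell from 21 to 8, 5, 5 and 11 under these 4 settings. With each peak placed by its centre, 0 genes had a covered TSS in place of 3, and 0.392% of protein-coding genes did. The median score of 185.5 became 277.8 with the 10 kb window, 338.5 with the gene body alone and with the nearest TSS, and 383.0 with the score limit, where the limit itself removes low scores, and was 185.5 under the remaining settings. The other counts were within 1.5 times of their main value, and the count of WT-enriched peaks was 0 wherever it was repeated. It was not repeated for uniqueness. Over all annotated genes the share with a gained peak was 65.2% in the window, 27.4% within 3 kb and 12.1% across a TSS. No paired analysis was possible because each list holds 1 value per peak, for the genotype where the peak was higher. For the same reason no library could be left out in turn. Peaks below a 2-fold difference were not used here, so low peaks at the limit of the list cannot be set against them.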
